A study of Mus musculus with 12 samples.

Results

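The fatty acid elongases and desaturases described here are 9 genes: the elongases Elovl1, Elovl2, Elovl3, Elovl5 and Elovl6, the stearoyl-CoA desaturases Scd1 and Scd2, and the fatty acid desaturases Fads1 and Fads2. They were chosen by gene symbol in the array annotation, and 8 of the 9 had a transcript cluster of their own among the 22180 genes tested. A transcript cluster is the group of short probes whose signals are summarised into 1 value for a transcript. The only cluster for Scd2 is listed jointly with the microRNA gene Mir5114, so its values, given further on, belong to neither gene by name.

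RNA came from the livers of 6 Ppara KO and 6 WT female mice, adults of 12 to 14 weeks on the C57Bl/6 background, kept on a light cycle of equal light and dark phases. Each animal gave 1 Affymetrix MoGene 2.0 ST array. Ppara is the gene of PPARα, a fatty acid-activated nuclear receptor, and the comparison asks which elongase and desaturase transcripts differ when this gene is disrupted. The labels used here give neither the design of the disrupted allele, the origin of the WT animals, the time of collection nor the feeding state.

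Elongases lengthen the carbon chain of a fatty acid in the endoplasmic reticulum, and each elongase carries out the first, rate-setting step of a cycle whose later steps are shared. Desaturases place a double bond in the chain with electrons passed on by cytochrome b5. In liver, Elovl6 and Scd1 turn newly made palmitate into oleate, Elovl1 and Elovl3 extend saturated and monounsaturated chains to very long ones, and Fads2, Elovl5, Fads1 and Elovl2 act in turn on dietary linoleic and linolenic acid to make long polyunsaturated fatty acids.

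The array medians lay between 4.13 and 4.17 on the log2 scale, and precision is limited by the 6 arrays per genotype. The hepatocyte markers Alb and Ahsg, both genes of abundant plasma proteins, were at 13.16 ± 0.026 and 12.87 ± 0.028 in Ppara KO livers, and at 13.19 ± 0.030 and 12.87 ± 0.026 in WT livers (SD, n = 6 each). The mean of 10 hepatocyte markers lay between 11.45 and 11.62 in Ppara KO livers and between 11.45 and 11.61 in WT livers, with 1 of them, Pck1, called higher. Ppara itself read 8.01 ± 0.13 in Ppara KO livers and 7.98 ± 0.16 in WT livers (SD, n = 6 each, limma adjusted p 0.882). Where its probes lie relative to the disruption is not stated in the labels, so this value does not check them.

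Livers of Ppara KO mice had less mRNA of the elongase genes Elovl3 and Elovl1 and of the desaturase gene Scd1. Elovl3 was 3.30-fold lower, Elovl1 1.37-fold lower and Scd1 1.34-fold lower. Elovl2, Elovl5, Elovl6, Fads1 and Fads2 did not pass the test, Elovl5 by a narrow margin, and no test compared members by the chains they act on. Of the 8 measured members 3 were therefore called lower in Ppara KO livers, 0 higher and 5 neither way at a limma adjusted p under 0.05. With the same threshold 5.77% of all genes tested were called lower and 4.46% higher. At an unadjusted limma p under 0.05 there were 5 of the 8, the further ones being Elovl5 and Fads1. Such p-values were common over all genes: Fads1, at an unadjusted p of 0.0385, stood at rank 4604 of 22180 by adjusted p. Counts at this unadjusted threshold, here and below, are therefore not read as an excess. The median difference, Ppara KO minus WT, was -0.23 over the 8 members and 0.0090 over all genes tested. Of the 8 differences 7 were negative, against 10554 of 22180 over all genes tested. In bulk liver, fewer cells of a type and less RNA per cell cannot be told apart.

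**Figure D1:**
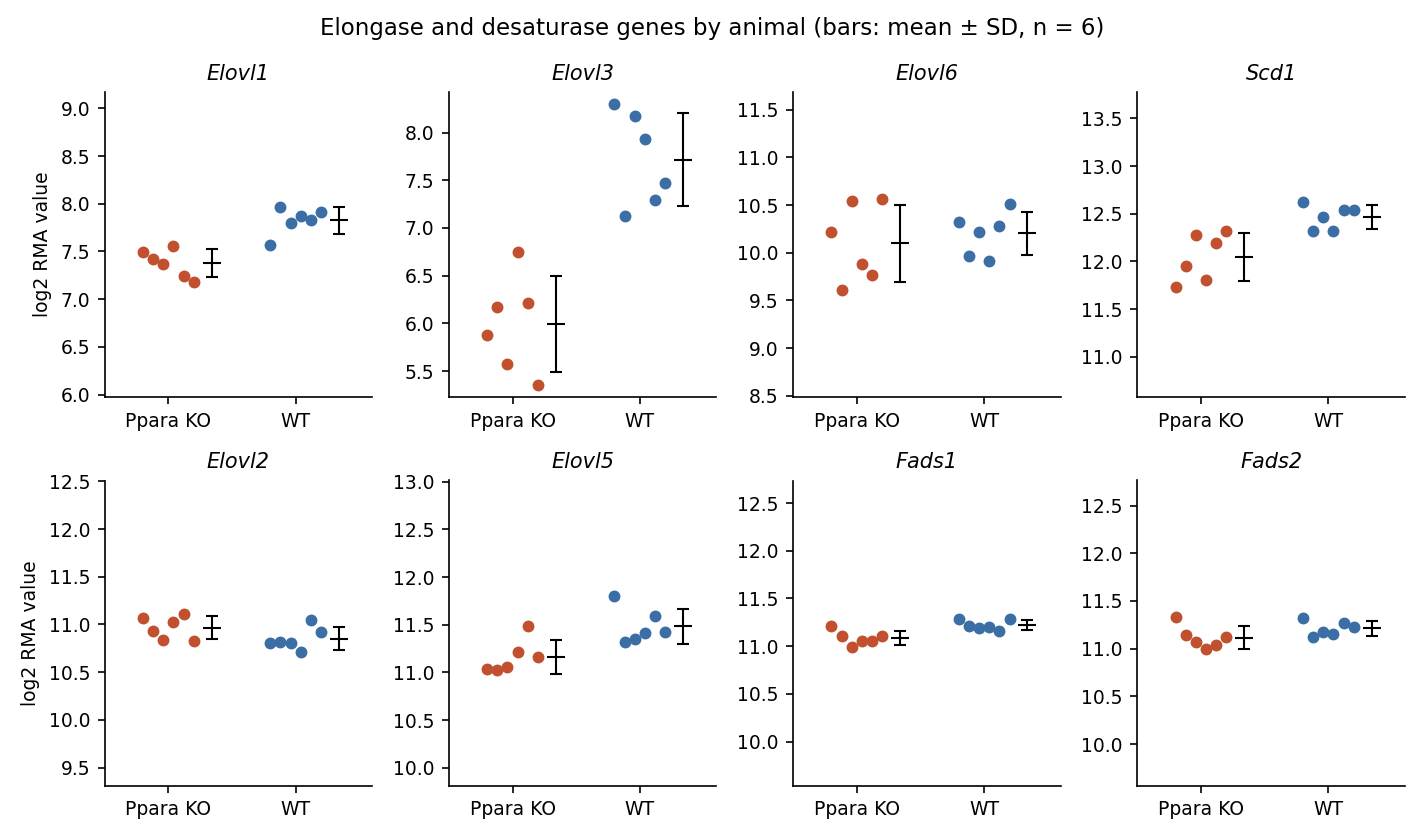
Log2 RMA value (vertical axis, the same span in every panel) of the 8 measured members in each Ppara KO and WT animal. Points are animals and bars show mean ± SD (n = 6); the 6 Ppara KO values lay below the 6 WT values for Elovl1 and Elovl3, while the values of the other members overlapped.

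Promoter sequence was available for 5 of the members from the RefSeq promoter table of build GRCm38.p6, in 7 windows of 250 bases before an annotated start. The 4 windows that held a motif searched for are shown, because they belong to members on both sides of the test: Elovl1, which was called, and Elovl5 and Elovl6, which were not. Each is written 5′ to 3′ on the strand of its gene, with matches to a searched motif, read on either strand, in capitals.
Elovl1 start 1, chr4:118427843-118428092 (+): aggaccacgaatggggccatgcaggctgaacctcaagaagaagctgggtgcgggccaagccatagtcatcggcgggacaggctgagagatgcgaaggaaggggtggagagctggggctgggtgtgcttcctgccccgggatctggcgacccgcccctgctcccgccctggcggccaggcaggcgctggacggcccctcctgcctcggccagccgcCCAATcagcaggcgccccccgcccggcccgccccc
Elovl1 start 2, chr4:118429451-118429700 (+): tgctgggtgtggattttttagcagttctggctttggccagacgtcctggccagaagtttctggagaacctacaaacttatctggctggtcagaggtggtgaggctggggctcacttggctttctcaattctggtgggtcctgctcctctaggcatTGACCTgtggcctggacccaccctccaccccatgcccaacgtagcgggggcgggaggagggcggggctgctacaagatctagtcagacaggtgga
Elovl5, chr9:77917115-77917364 (+): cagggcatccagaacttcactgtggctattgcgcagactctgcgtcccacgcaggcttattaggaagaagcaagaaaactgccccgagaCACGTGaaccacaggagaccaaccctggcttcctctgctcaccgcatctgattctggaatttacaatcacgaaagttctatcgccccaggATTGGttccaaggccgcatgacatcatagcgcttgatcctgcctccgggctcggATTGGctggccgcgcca
Elovl6, chr3:129532136-129532385 (+): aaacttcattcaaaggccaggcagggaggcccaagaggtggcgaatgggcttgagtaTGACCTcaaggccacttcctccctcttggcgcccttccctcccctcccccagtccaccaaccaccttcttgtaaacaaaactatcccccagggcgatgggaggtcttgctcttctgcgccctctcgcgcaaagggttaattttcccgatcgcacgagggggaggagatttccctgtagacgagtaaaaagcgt

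Positions are counted back from the annotated start. The first Elovl1 window held a CCAAT box (CCAAT) from -35 to -31. The second Elovl1 window held the hexamer AGGTCA, a binding unit of nuclear receptors, from -95 to -90 on the opposite strand. The Elovl6 window had the same hexamer from -193 to -188, also on the opposite strand. In the Elovl5 window an E-box (CACGTG), the element bound by CLOCK and BMAL1 among other factors, lay from -161 to -156, and CCAAT boxes lay on the opposite strand from -71 to -67 and from -17 to -13. The 2 windows of Elovl2 and the 1 of Fads2 held none of the motifs searched.

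These motifs are short and common. AGGTCA was present in 14.0% of 32851 windows of the same length over all genes, CACGTG in 6.02% and CCAAT in 33.8%. The full direct repeat of that hexamer with a single base between its copies, the element of PPARα with its partner RXR, was in 0.0335% of windows, and the sterol regulatory element TCACNCCAC in 1.05%. Neither was in any of the 7 windows, which belong to Elovl1, Elovl2, Elovl5, Elovl6 and Fads2, and this says only that these letters are not in them. Elovl3, Scd1, Scd2 and Fads1 were not searched. A match is a stretch of letters and not a measured binding site.

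Elovl3 encodes an elongase of saturated and monounsaturated very long chains, known from brown fat, skin glands and liver. Its log2 values ran from 5.35 over a median of 6.03 to 6.75 in Ppara KO livers, and from 7.12 over a median of 7.70 to 8.30 in WT livers. No Ppara KO animal reached the lowest WT animal. The mean was 5.99 ± 0.50 in Ppara KO livers and 7.72 ± 0.49 in WT livers (SD, n = 6 each). The difference of -1.72 (SE 0.239, 95% interval -2.23 to -1.21) had a limma adjusted p of 0.000280 and an exact 2-sided permutation p of 0.00216, the smallest that 6 arrays against 6 can give. It was both called and past a 1.5-fold change, as 2.29% of all genes tested were in either direction and 1.53% in the lower one. By adjusted p Elovl3 stood at rank 238 of all genes, where tied genes share the first rank of their tie.

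Elovl1 encodes a broadly expressed elongase of saturated and monounsaturated very long chains that supplies sphingolipids. It was at 7.18 to 7.55 with a median of 7.40 in Ppara KO livers, and at 7.57 to 7.97 with a median of 7.85 in WT livers. The groups did not overlap, though the highest Ppara KO animal, number 4 at 7.55, came within 0.02 of the lowest WT animal, number 1 at 7.57. The mean was 7.38 ± 0.14 in Ppara KO livers and 7.83 ± 0.14 in WT livers (SD, n = 6 each). Elovl1 fell by 0.45 (SE 0.0837, 95% interval -0.63 to -0.27, limma adjusted p 0.00283, exact permutation p 0.00216). Elovl1 and Elovl3 were the 2 of 8 members whose groups did not overlap, while 6.51% of all genes tested had no overlap, 3.78% with the lower values in Ppara KO livers.

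Scd1 encodes the main hepatic stearoyl-CoA desaturase, which makes oleate and palmitoleate. Its values ran from 11.73 over a median of 12.07 to 12.32 in Ppara KO livers, and from 12.32 over a median of 12.50 to 12.63 in WT livers. The ranges met at 12.32, where Ppara KO 6 lay just above WT 2. Scd1 fell by 0.42 (SE 0.107, 95% interval -0.65 to -0.19), with means of 12.05 ± 0.25 in Ppara KO livers and 12.47 ± 0.12 in WT livers (SD, n = 6 each). The limma adjusted p was 0.0195 and the exact permutation p 0.00433. With WT 1, 3 and 5 left out, which had the highest adipocyte marker levels, the Scd1 difference was -0.35 and no longer called (adjusted p 0.206). The Scd genes are close paralogs, and how far their probes cross-hybridise was not tested.

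The joint cluster of Scd2 and Mir5114 read from 5.76 to 6.27 in Ppara KO livers and from 5.86 to 6.59 in WT livers. Its mean was 6.00 ± 0.18 in Ppara KO livers and 6.21 ± 0.27 in WT livers (SD, n = 6 each). The difference of -0.20 (SE 0.126, 95% interval -0.47 to 0.069) was not called in a limma fit of all 41345 clusters (adjusted p 0.445).

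Elovl6 encodes the elongase that turns palmitate into stearate, one step before Scd1. It ran from 9.61 over a median of 10.05 to 10.56 in Ppara KO livers, and from 9.91 over a median of 10.25 to 10.51 in WT livers. The Ppara KO animals spanned the whole WT range, with 3 of them below the lowest WT animal and 2 above the highest. The difference was -0.10 (95% interval -0.45 to 0.24, limma adjusted p 0.775, exact permutation p 0.578). With 1 animal left out at a time the Elovl6 difference ran from -0.20 without Ppara KO 6 to -0.0080 without Ppara KO 2, never called.

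Among the members of the polyunsaturated route, Elovl5, which elongates chains early in the route, had the widest difference. It ran from 11.02 over a median of 11.11 to 11.48 in Ppara KO livers, and from 11.32 over a median of 11.42 to 11.80 in WT livers. A single Ppara KO animal, number 5 at 11.48, lay within the WT range. The difference of -0.32 (SE 0.0986, 95% interval -0.53 to -0.11) just missed the threshold with a limma adjusted p of 0.0502 (exact permutation p 0.0130). The Elovl5 difference was called without Ppara KO 5 (-0.39, adjusted p 0.0150) and without WT 2 (-0.36, adjusted p 0.0483).

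Fads1, the delta-5 desaturase late in the route, was at 10.99 to 11.21 with a median of 11.08 in Ppara KO livers, and at 11.16 to 11.28 with a median of 11.21 in WT livers. Ppara KO 1 alone lay within the WT range. The difference of -0.13 (95% interval -0.26 to -0.0081) was not called (limma adjusted p 0.185, exact permutation p 0.0108). Its neighbour Fads2, the delta-6 desaturase that opens the route, was at 10.9975 to 11.33 with a median of 11.10 in Ppara KO livers, and at 11.12 to 11.32 with a median of 11.20 in WT livers. The ranges of Fads2 overlapped, and the difference was -0.097 (95% interval -0.24 to 0.050, limma adjusted p 0.452, exact permutation p 0.119).

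Elovl2, the elongase of the longest polyunsaturated chains on the way to docosahexaenoic acid, was the only measured member with a positive difference. It ran from 10.82 over a median of 10.98 to 11.11 in Ppara KO livers, and from 10.71 over a median of 10.81 to 11.05 in WT livers. The ranges overlapped, and the difference was 0.11 (95% interval -0.047 to 0.28, limma adjusted p 0.412, exact permutation p 0.108).

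**Figure D2:**
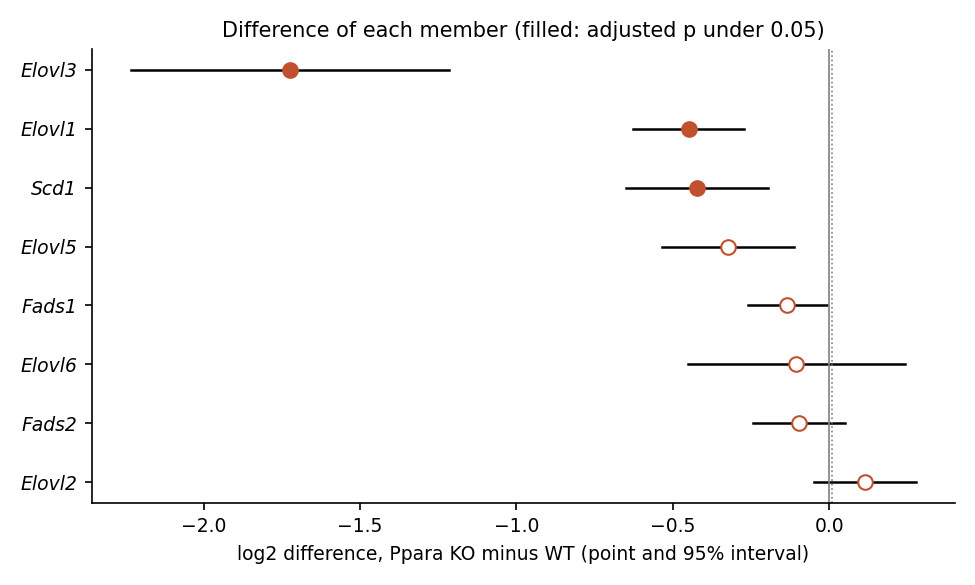
Log2 difference, Ppara KO minus WT (horizontal axis), of the 8 measured members with 95% intervals from the limma fit; filled points were called, the solid line marks 0 and the dotted line the median of all genes tested. Elovl3, at -1.72, lies apart from the other members, which range from -0.45 to 0.11.

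Elovl3 was also set against each other member, by subtracting the other member's log2 value from that of Elovl3 within each array and taking Ppara KO minus WT of the result. This double difference was -1.28 against Elovl1, -1.30 against Scd1 and -1.40 against Elovl5. It was -1.59 against Fads1, -1.62 against Elovl6, -1.63 against Fads2 and -1.84 against Elovl2. Elovl3 was chosen for this with its larger difference in the same arrays known, so the 7 values are a description and no p-value is given for them.

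The spread of Elovl3 between animals was wide in both genotypes. Ppara KO 2, 4 and 5 had the 3 highest values of their genotype, 6.17, 6.75 and 6.21, and Ppara KO 1, 3 and 6 had 5.88, 5.57 and 5.35. In Elovl6 the order was turned: Ppara KO 2, 4 and 5 had 9.61, 9.88 and 9.76, and Ppara KO 1, 3 and 6 had 10.22, 10.54 and 10.56. The same 3 animals were highest of their genotype in Insig2, in the clock activator gene Clock and in its partner gene Arntl. Clock and Arntl were named outside the rule for named genes. Npas2, a paralog of Clock, did not have this order, with Ppara KO 3 at 4.23 above Ppara KO 4 at 4.16. In the clock genes Dbp and Per3, Ppara KO 2, 4 and 5 were lowest of their genotype. Per3 read 7.03, 7.09 and 7.21 in them, and 7.88, 7.69 and 7.88 in Ppara KO 1, 3 and 6. Tef had neither order, with Ppara KO 5 at 7.32 above Ppara KO 1 at 7.30. How many of all genes share the order of Elovl3 was not counted. Insig2 read 8.84, 8.45 and 8.40 in Ppara KO 2, 4 and 5, and 7.85, 7.85 and 7.84 in Ppara KO 1, 3 and 6. These are single values per animal, set side by side without a test.

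Clock genes separated the genotypes. Of 17 measured clock genes 11 were called higher in Ppara KO livers and 4 lower, against 4.46% and 5.77% of all genes tested. Their median difference was 0.72. Arntl, which encodes BMAL1, was at 5.04 to 7.01 in Ppara KO livers and at 8.34 to 8.67 in WT livers. Clock was at 8.15 to 8.88 in Ppara KO livers and at 9.46 to 9.79 in WT livers. Npas2, a paralog of Clock, fell by 3.48 (SE 0.0936), while the clock output genes Dbp and Tef and the period gene Per3 rose by 3.49 (SE 0.197), 2.21 (SE 0.106) and 3.04 (SE 0.155), with limma adjusted p-values between 8.56e-12 and 3.26e-08. Tef was at 1.44 where the clusters of a gene were averaged, and it lies on chromosome 15, as Ppara does. Rora and Cry1, a clock receptor and a clock repressor gene, differed by 0.03 and -0.06 and were not called. The state of the clock and the genotype cannot be told apart in these 12 livers, for Elovl3 as for every other member.

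Adipocyte markers also moved with the genotype, through part of the WT animals. Of 8 measured markers 3 were called lower in Ppara KO livers and 0 higher, against 5.77% and 4.46% of all genes tested. The 3 were Plin4, lower by 0.68 (SE 0.157), Lipe by 0.37 (SE 0.0881) and Adipoq by 0.92 (SE 0.256). Leaving out any 1 of WT 3 and Ppara KO 1, 2, 3 and 6 ended the call of Adipoq (adjusted p up to 0.0661). The mean level of the 8 markers was 4.28 to 4.56 in Ppara KO livers, and 5.37, 4.63, 6.13, 4.50, 6.12 and 4.84 in WT 1 to 6. The 6 brown adipocyte markers, counted because Elovl3 is abundant in brown fat, had no call (2 at an unadjusted p under 0.05 by limma), with means of 3.48 to 3.74 in Ppara KO livers and 4.24, 3.63, 4.60, 3.59, 4.42 and 3.81 in WT 1 to 6. Ucp1, which defines brown fat, was at 3.31 to 3.66 in Ppara KO livers and at 4.95, 3.62, 5.36, 2.93, 5.32 and 4.27 in WT 1 to 6.

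WT 1 and 3, high in these markers, had the 2 highest Elovl3 values, 8.30 and 8.17. WT 5, also high in the markers, had the second lowest of its genotype, 7.29. Without WT 1, 3 and 5 together, Elovl3 was called with a difference of -1.52 (limma adjusted p 0.00798), and Elovl1 with -0.54 (adjusted p 0.00864). That setting left 2 members called, Elovl3 and Elovl1, and 1008 of all genes. Elovl5 differed by -0.23 without those animals (adjusted p 0.293). The animals kept were not equal in the adipocyte markers. Mean levels in WT 2 and 6, at 4.63 and 4.84, lay above the highest Ppara KO mean of 4.56, and WT 4, at 4.50, lay below it. The part of fat cells in the member differences was not tested, and fat cell content and genotype cannot be told apart here.

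**Figure D3:**
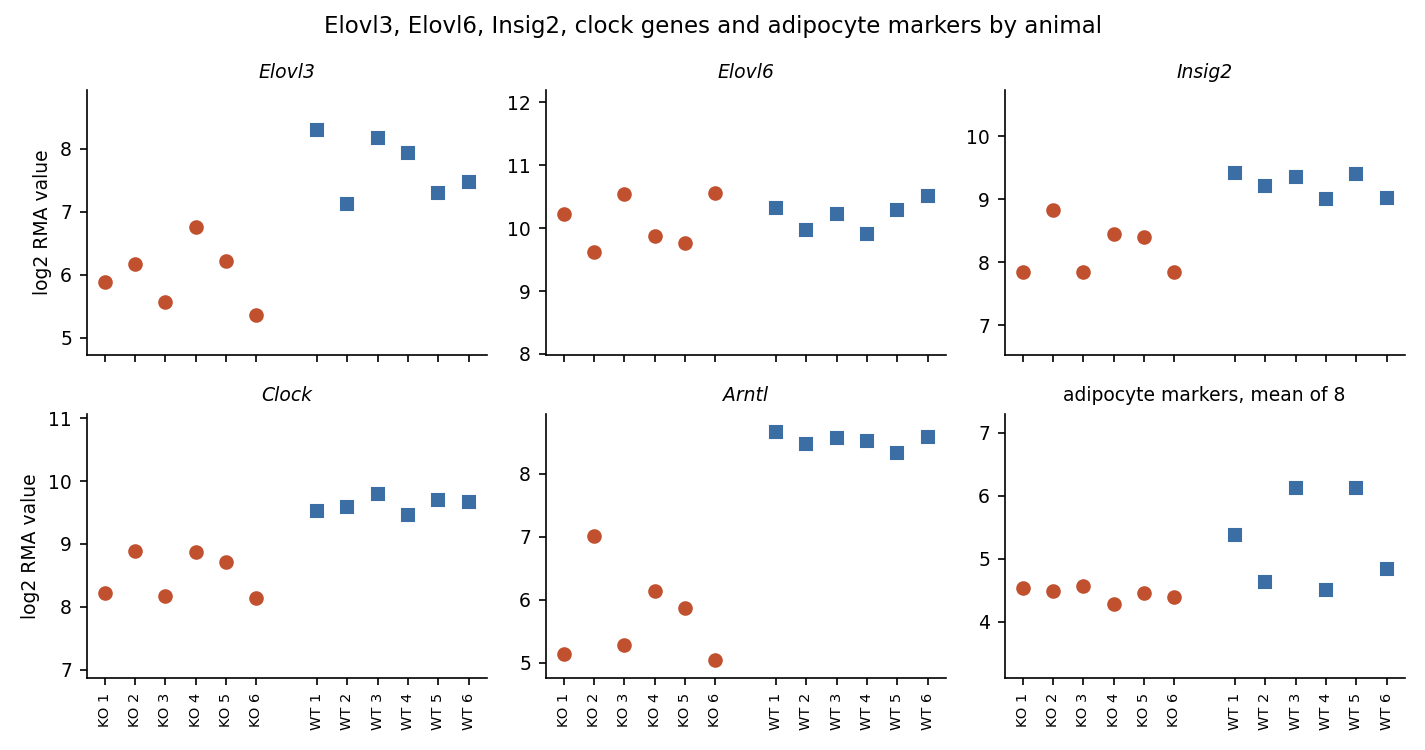
Log2 RMA value (vertical axis, the same span in every panel) in each Ppara KO (KO, circles) and WT (squares) animal for Elovl3, Elovl6, Insig2, Clock and Arntl, and the mean of 8 adipocyte markers. Ppara KO 2, 4 and 5 lie highest of their genotype in Elovl3, Insig2, Clock and Arntl and lowest in Elovl6, and WT 1, 3 and 5 lie highest in the adipocyte markers.

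Calls among markers of other liver cells are given by list, beside 10.2% of all genes tested called in either direction. Of 8 Kupffer cell and macrophage markers, Cd5l was called higher, with list means of 7.59 to 8.33 in Ppara KO livers and 7.30 to 7.71 in WT livers. Only 1 of these 8 differences was negative, and their median was 0.20. Of 8 lymphocyte markers, Cd8a was called higher, with means of 4.63 to 4.93 in Ppara KO livers and 4.59 to 4.89 in WT livers. Of 5 cholangiocyte markers, Krt19 and Sox9 were called lower, with means of 4.02 to 4.45 in Ppara KO livers and 4.16 to 4.46 in WT livers. The 7 endothelial, 8 stellate cell and fibroblast and 5 pancreatic acinar markers had 0 calls by limma, with 3, 2 and 0 at an unadjusted p under 0.05. The calls of Pck1, Cd5l, Krt19 and Sox9 each ended when single animals were left out, 7, 8, 6 and 8 of the 12 when taken 1 at a time (adjusted p up to 0.0837). The part of these markers in the member differences was not tested.

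The genes whose pattern was closest to Elovl3 were found by the root mean square difference between values centred on each gene's own mean over the 12 arrays. Predicted genes and placeholder symbols were left out. They were Dhrs9, a short-chain dehydrogenase gene active on retinoids, at a distance of 0.339, E2f8, an E2F repressor gene of the cell cycle, at 0.354, and Plin5, a lipid droplet coat gene, at 0.365, where Elovl3 itself varied by 0.973 about its mean. Their differences, Ppara KO minus WT, were -1.51 for Dhrs9, -1.82 for E2f8 and -1.82 for Plin5. In each the 6 Ppara KO values lay below the 6 WT values, as in Elovl3. The genes were picked for closeness to Elovl3 in these same arrays, so this shared split follows from the choice and is no separate result.

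**Figure D4:**
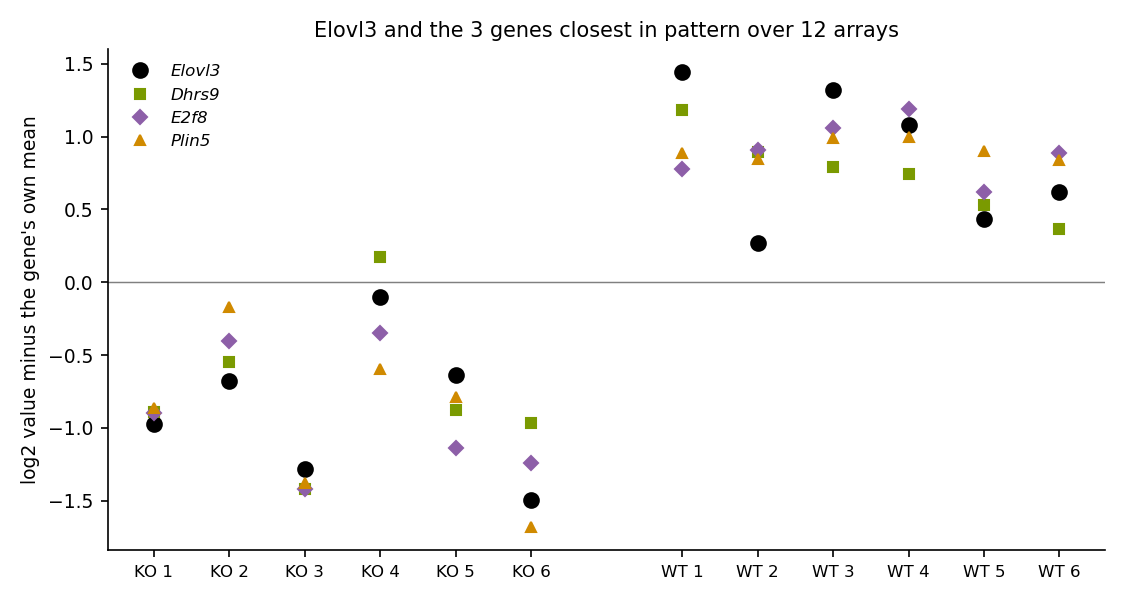
Log2 value minus the gene's own mean (vertical axis) of Elovl3, Dhrs9, E2f8 and Plin5 in each Ppara KO (KO) and WT animal. All 6 WT values of each gene lie above its 6 Ppara KO values, and Ppara KO 3 and 6 lie lowest for Elovl3. Dhrs9, E2f8 and Plin5 were picked for closeness to Elovl3 in these arrays.

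Around the members, 8 lists of pathway genes held 60 measured genes of 64, of which 11 were called lower and 3 higher in Ppara KO livers, against 5.77% and 4.46% of all genes tested. The median difference of the 60 was -0.080. These lists are short and were written with earlier results of these data known. Their counts, here and by list below, are therefore not read as an excess. Without WT 1, 3 and 5, 6 pathway genes were called: Cyb5r3, Thrsp, Insig2, Srebf2, Abcd2 and Hsd17b4. In that setting Fads6 differed by 0.25, Fads3 by -0.45, Hsd17b12 by -0.26, Hacd3 by -0.23, Cyb5a by 0.27, Acss2 by -0.36, Scap by -0.33 and Abcd3 by -0.19, with adjusted p-values between 0.0809 and 0.291.

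Among the other elongase and desaturase genes 1 of 7 rose and 1 fell, against 4.46% and 5.77% of all genes tested. Their median difference was 0.11. Fads6, a desaturase-like gene, rose by 0.39 (SE 0.0917, limma adjusted p 0.0129), at 6.92 to 7.32 in Ppara KO livers and 6.54 to 6.91 in WT livers. Fads3, which lies beside Fads2 and Fads1 on chromosome 19, fell by 0.47 (SE 0.115, adjusted p 0.0176), at 5.53 to 6.15 in Ppara KO livers and 6.10 to 6.56 in WT livers. Scd3, which lies in a row with Scd2, Scd4 and Scd1 on chromosome 19, differed by 0.11 and Degs2, a sphingolipid desaturase gene, by 0.30, and neither was called. Scd3 and Degs2 had means below the array medians in both genotypes.

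Of 6 partner genes of the later elongation steps 2 fell and 0 rose, against 5.77% and 4.46% of all genes tested. Their median difference was -0.099. Hsd17b12, the ketoacyl-CoA reductase gene, fell by 0.27 (SE 0.0652, limma adjusted p 0.0137), at 8.22 to 8.49 in Ppara KO livers and 8.56 to 8.77 in WT livers. Hacd3, a dehydratase gene, fell by 0.23 (SE 0.0623, adjusted p 0.0282), at 8.71 to 8.91 in Ppara KO livers and 8.93 to 9.15 in WT livers. The call of Hacd3 ended without any 1 of WT 3, WT 4 and Ppara KO 2, 3, 4 and 5 (adjusted p up to 0.0609). Tecr, the enoyl-CoA reductase gene of the last step, differed by -0.11 and Hacd2 by 0.04, without a call.

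Of 6 electron donor genes of the desaturases 1 fell and 1 rose, against 5.77% and 4.46% of all genes tested. Their median difference was -0.0090. Cyb5r3, the reductase that feeds cytochrome b5, was 2.00-fold lower, the smallest adjusted p among the members and pathway genes. It lay at 10.90 to 11.02 with a median of 10.92 in Ppara KO livers, and at 11.88 to 12.01 with a median of 11.94 in WT livers, a difference of -1.003 (SE 0.0562, limma adjusted p 3.24e-08). The groups were far apart relative to their spread. Cyb5a, the gene of microsomal cytochrome b5, rose by 0.22 (SE 0.0626, adjusted p 0.0333), at 9.59 to 9.79 in Ppara KO livers and 9.33 to 9.55 in WT livers. The call of Cyb5a ended without any 1 of 8 animals, WT 2, 3, 4 and 6 and Ppara KO 1, 2, 4 and 6 (adjusted p up to 0.0753). Cyb5b, of the outer mitochondrial membrane, and Cyb5r4 differed by 0.01 and -0.11 and were not called.

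In the supply of malonyl-CoA and palmitate 1 of 9 genes fell and 1 rose, against 5.77% and 4.46% of all genes tested. Their median difference was -0.16. Thrsp, a lipogenic gene induced by thyroid hormone, rose 1.90-fold, with a difference of 0.93 (SE 0.127, limma adjusted p 0.000268), at 10.19 to 10.96 in Ppara KO livers and 9.32 to 9.94 in WT livers. Acss2, which makes acetyl-CoA from acetate, fell by 0.45 (SE 0.121, adjusted p 0.0282), at 9.12 to 9.75 in Ppara KO livers and 9.48 to 10.13 in WT livers. The call of Acss2 ended without any 1 of WT 1, 3 and 6 and Ppara KO 1, 2, 4 and 5 (adjusted p up to 0.0635). Fasn, the fatty acid synthase gene that makes palmitate, read 10.59 ± 0.36 in Ppara KO livers and 10.89 ± 0.26 in WT livers (SD, n = 6 each), a difference of -0.31 that was not called (adjusted p 0.265). Slc25a1, the citrate carrier gene, differed by -0.02.

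Among 10 measured regulators of lipogenic transcription 3 fell and 0 rose, against 5.77% and 4.46% of all genes tested. Their median difference was -0.12. Insig2, which holds SREBP precursors in the endoplasmic reticulum, fell by 1.03 (SE 0.163, limma adjusted p 0.000828), 2.04-fold, at 7.84 to 8.84 in Ppara KO livers and 9.002 to 9.42 in WT livers. Srebf2, the SREBP2 gene, fell by 0.56 (SE 0.102, adjusted p 0.00245), at 7.67 to 8.19 in Ppara KO livers and 8.18 to 8.61 in WT livers. Scap, the escort of SREBP precursors, fell by 0.35 (SE 0.0856, adjusted p 0.0152), but with the mean of its clusters by 0.21 and without a call (adjusted p 0.184). Mlxipl, the ChREBP gene, differed by -0.20 (adjusted p 0.0724) and Insig1, a paralog of Insig2, by 0.0046 (adjusted p 0.989), and neither was called. Srebf1, the SREBP1 gene, named outside the rule because it is the textbook regulator of Scd1, Elovl6 and Fasn, differed by 0.20 (adjusted p 0.468).

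The polyunsaturated route ends in the peroxisome, where its longest chains are shortened by one round of beta-oxidation. Of 6 measured genes of that step 3 fell and 0 rose, against 5.77% and 4.46% of all genes tested. Their median difference was -0.26. Abcd2, a peroxisomal importer gene of very long and polyunsaturated acyl-CoA, was 4.29-fold lower, at 6.13 to 7.57 in Ppara KO livers and 8.81 to 9.12 in WT livers (difference -2.10, SE 0.176, limma adjusted p 2.49e-06). Hsd17b4, the D-bifunctional protein gene, fell by 0.64 (SE 0.0593, adjusted p 5.73e-06), at 9.51 to 9.73 in Ppara KO livers and 10.22 to 10.29 in WT livers. Abcd3, another importer gene, fell by 0.28 (SE 0.0804, adjusted p 0.0358), and its call ended without any 1 of WT 1, 3, 4 and 5 and Ppara KO 3, 5 and 6 (adjusted p up to 0.0732). Scp2, a thiolase and sterol carrier gene, and Acaa1b, a thiolase gene, differed by 0.20 and -0.24 and were not called. The Acaa1b difference was -0.074 without WT 1, which stood at 10.28, and 0.026 without WT 1, 3 and 5.

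Cyb5r3, Srebf2 and Abcd2 lie on chromosome 15, as Ppara does. In the gene order of GRCm38.p6 Srebf2 stands 58 and Cyb5r3 34 protein-coding genes before Ppara, and Abcd2 stands 53 after it. Of 104 tested genes within 58 places of Ppara on either side, 30 were called, 24 lower and 6 higher. That is 28.8%, against 10.2% of all genes tested. The width of 58 places is the distance of Srebf2, the farthest of Srebf2, Cyb5r3 and Abcd2, which were all called. Srebf2, Cyb5r3 and Abcd2 are themselves counted among the 30, so this share is not read as an excess. The clock output gene Tef lies on chromosome 15 too, and its distance from Ppara was not counted. For Cyb5r3, Srebf2, Abcd2 and Tef the disruption of Ppara and the chromosome segment inherited with it cannot be told apart. None of the 9 members lies on chromosome 15. Scd1, Scd2, Fads1, Fads2 and Elovl3 lie on chromosome 19, where Elovl3 stands 29 genes after Scd1.

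Genes of enzymes that take up the products had no call by limma at the settings used throughout. Of 8 phospholipid acyltransferase genes 2 had an unadjusted p under 0.05 and the median difference was -0.12. Such p-values were common over all genes tested, which holds for the ceramide genes below as well. Lpcat3, which places polyunsaturated chains in phospholipids, was at 9.75 to 10.04 in Ppara KO livers and 9.97 to 10.59 in WT livers, a difference of -0.30 (adjusted p 0.0595). The Lpcat3 difference was called with a variance trend, a further quantile normalization, dimmer genes left out of the fit, or WT 4 left out (adjusted p 0.0216 to 0.0452), and it was -0.15 without WT 1, 3 and 5. Agpat3 differed by -0.19 (adjusted p 0.0753), with groups that did not overlap, and was called with a variance trend (0.0305) or with dimmer genes left out (0.0253). Of 8 ceramide synthesis genes 2 had an unadjusted p under 0.05 and the median was -0.047. Cers2, the ceramide synthase gene for very long chains, and Sptlc2, a subunit gene of serine palmitoyltransferase, differed by -0.02 and -0.05.

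**Figure D5:**
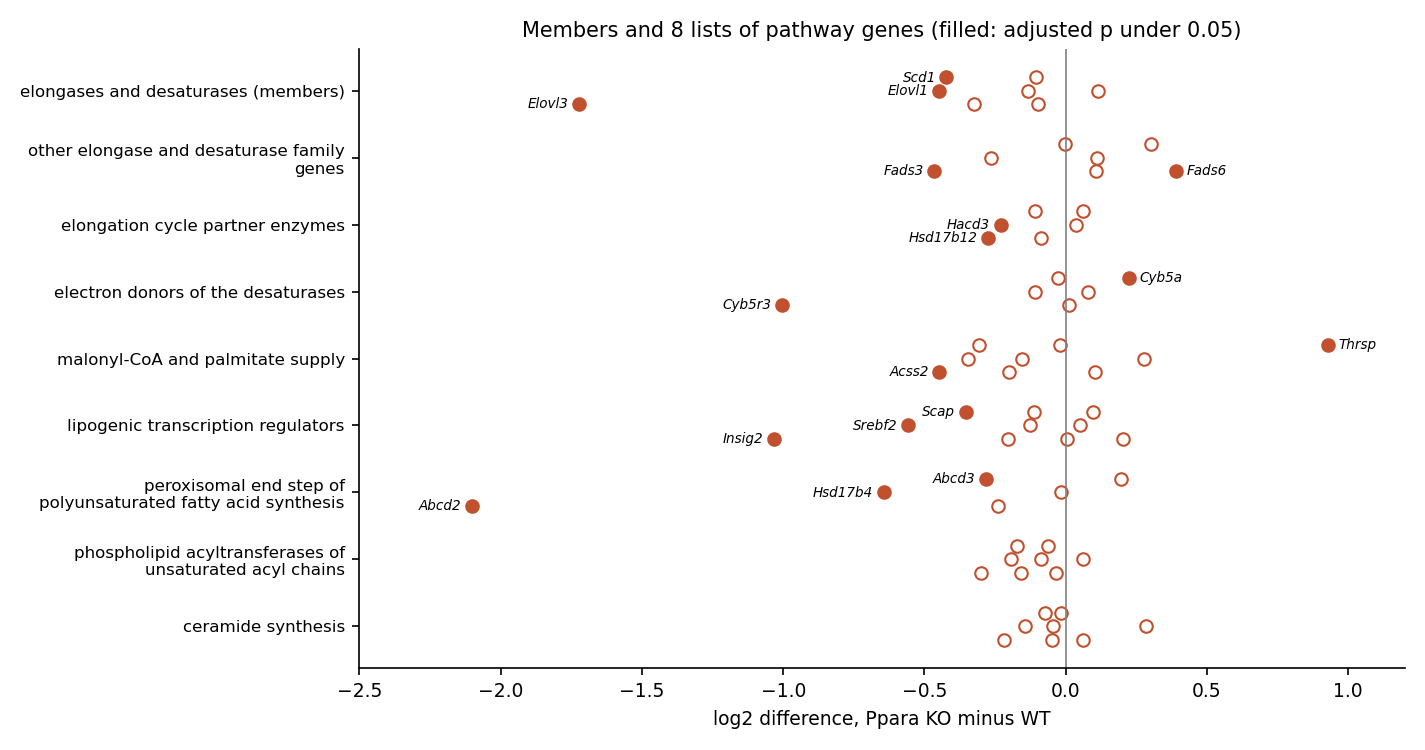
Log2 difference, Ppara KO minus WT (horizontal axis), of the 8 measured members and of 60 genes in 8 lists of pathway genes, with called genes filled and named. The calls among pathway genes are 11 to the left of 0 and 3 to the right, with Abcd2 at -2.10 and Cyb5r3 at -1.003 on the left and Thrsp at 0.93 on the right.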

How the data were processed

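Liver RNA of 12 mice was measured on 1-colour arrays. The deposited values are log2 values made with RMA and Partek (no version given), per the submitters' processing notes. RMA brings arrays to a common distribution and compresses differences of dim genes, so levels of different genes were not compared. Of 41345 clusters 25335 were listed in the platform annotation, 23521 with 1 symbol, 1814 with several and 16010 not listed. Entrez identifiers matched the RefSeq table of GRCm38.p6 for 23328 clusters. The cluster with the highest mean stood for a gene.

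The 22180 genes were fitted with limma 3.58.1 in R 4.3.3 (lmFit, eBayes, 2-sided, no covariate) and adjusted by Benjamini-Hochberg, with calls at an adjusted p under 0.05. The fit was tested on simulated data. Exact permutation tests ran over all assignments of 6 and 6 arrays. Elovl3 was set against 7 members and not 8, since Scd2 has no cluster of its own. The permutation test planned for these pairs is not reported, since Elovl3 was chosen with its result known.

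Members and lists (8 pathway, clock, male-biased and female-biased liver genes, and 9 cell type lists) were chosen with earlier results of these data known. Named genes are all members, up to 4 called genes with the smallest adjusted p and 2 others with the highest mean per list, and the 3 genes closest in pattern to a member changed at least 1.5-fold. Animal numbers belong to different animals within each genotype, and the labels give no pairing of them. Alternatives covered the variance prior, array weights, scaling, genes tested, choice of cluster, thresholds, the block and animals left out.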

Additional observations from a re-analysis of the deposited data

Results flagged for a closer look

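In 11 of 164 sets of 6 values (82 named genes in each genotype) 1 animal stood apart from the others by Dixon's ratio with a critical value of 0.625, and chance alone gives about 1 in 20. None of the 8 measured members was among them. Ppara KO 4 was apart in 4 genes: Tecr at 10.47, Lpcat3 at 9.75, Nudt7 at 9.31 and Cyp4a12b at 4.82. Other Ppara KO animals stood apart in Npas2, with Ppara KO 5 at 4.63, in Cry1, with Ppara KO 2 at 6.84, and in Fabp4, with Ppara KO 3 at 6.82. Among WT animals WT 4 was apart in C6 at 7.39 and in Alb at 13.14, WT 2 in Dbp at 7.09 and WT 6 in Npas2 at 7.95.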

How the results depend on the processing

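No called result changed direction, and Elovl3 was called under each of its 24 alternatives, with a difference of -1.88 to -1.52. A 1.5-fold threshold left 1 member, Elovl3, with 508 of all genes and 5 pathway genes, and so ended the calls of Elovl1 (-0.45) and Scd1 (-0.42). An adjusted p under 0.01 left 1070 genes and 6 pathway genes and ended that of Scd1 (-0.42, adjusted p 0.0195). Without WT 1, 3 and 5 there were 1008 genes and 6 pathway genes, the Scd1 difference was -0.35 without a call, and the double difference of Elovl3 against Scd1 was -1.17. That setting has fewer arrays and a smaller share of calls in general. The Elovl5 difference was called with a variance trend (-0.32, adjusted p 0.0189), with array weights (-0.33, 0.0365) and when dimmer genes were left out of the fit (-0.32, 0.0223). Beyond the smaller number of arrays or genes, the causes were not tested. With 1 animal left out at a time, members called ran from 3 to 4, all genes from 1817 to 2130, pathway genes from 10 to 14, the Elovl3 difference from -1.88 to -1.60, the Scd1 difference from -0.48 to -0.36, and the Elovl5 difference from -0.39 to -0.26. With the replicate number as a block 3 members, 1672 genes and 11 pathway genes were called, and Elovl3 had an adjusted p of 0.00145, Scd1 of 0.0290 and Elovl5 of 0.0628, while Fads3 (0.0527), Hacd3 (0.100), Cyb5a (0.0852) and Abcd3 (0.0792) were not called and Lpcat3 (0.0469) was. Same-numbered animals had correlations of -0.047 to 0.043 over all genes, and no animal correlated best with its own number. The numbers thus showed no pairing over all genes, and pairing in part of the genes was not tested. Depth does not apply to arrays: 6 animals per genotype and a median standard error of 0.0926 set the precision.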

Other observations

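Elovl3 has been described as male-biased in mouse liver, and the sex-biased genes of these female livers were counted for that reason. Of 13 measured male-biased genes 7 were called higher and 1 lower, against 4.46% and 5.77% of all genes tested. The lower one was Selenbp2, named outside the rule, and the median difference was 0.44. Cyp7b1, an oxysterol hydroxylase gene, rose by 1.15 (SE 0.0883), the urinary protein gene Mup21 by 1.48 (SE 0.155), the complement gene C6 by 1.07 (SE 0.120) and the transporter gene Slco1a1 by 1.11 (SE 0.126), with limma adjusted p-values up to 4.34e-05. Nudt7 and Cyp4a12b differed by -0.27 and -0.25 and were not called. Elovl3, a member and not counted in that list, was lower in Ppara KO livers.

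Of 12 measured female-biased genes 4 were called higher and 4 lower, against 4.46% and 5.77% of all genes tested, with a median of 0.023. The cytochrome P450 gene Cyp3a16 fell by 3.80 (SE 0.270), A1bg by 2.91 (SE 0.352) and the sulfotransferase gene Sult2a1 by 3.09 (SE 0.375), while Cyp2a4 rose by 0.86 (SE 0.124), with limma adjusted p-values up to 0.000385. Sult3a1 and Cyp2b13 differed by -0.07 and 0.04 and were not called.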
